A study of Mus musculus with 168 samples.

Results

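The brain of adult mice was measured 12 hours after a short exposure to low oxygen, across 7 dissected regions taken as one organ, and the change from sham that the regions had in common was sought. The members were the 42 arrays labelled as 12 hours after reoxygenation (R12) or as 0 hr, which are the arrays of 6 of the 24 mice of the series: 21 arrays from 3 R12 mice and 21 from 3 sham mice. Each mouse gave 1 array of cerebellum, cortex, hippocampus, midbrain, pons with medulla, striatum and thalamus. A mouse was taken as the 7 arrays that share a time point and a replicate number, which the labels allow but do not state. RNA was measured on Affymetrix Mouse 430 2.0 arrays, whose probe sets each report 1 or more transcripts as a fluorescence intensity.

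All animals were male C57BL/6 mice of 8 to 9 weeks. R12 mice breathed 8% oxygen for 3 hours and room air for 12 hours. R6 and R24 mice had the same hypoxia and then 6 or 24 hours of room air, and are used here as neighbouring times. The labels name the group that R12 is set against 0 hr only. It is taken here as the sham control of the study's methods, whose mice spent 3 hours in the chamber in room air and 24 hours in the home cage. R12 mice were therefore killed about 15 hours after they entered the chamber, R6 mice about 9 hours after, and R24 and, if the 0 hr label stands for those controls, sham mice about 27 hours after. The hour of the day is not given in the sources used here, so the effect of earlier hypoxia and that of the hour of killing cannot be told apart between R12 and sham. Between R12 and R6 or R24, time since hypoxia and the hour of killing cannot be told apart either. Every group had 3 mice, and nothing in the labels says whether they were handled on separate days.

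Hypoxia stabilises hypoxia-inducible factor (HIF), which switches on genes of glycolysis, vessel growth and oxygen delivery, and the response fades after oxygen returns. Hypoxia is also a stressor: the adrenal gland releases glucocorticoids, which reach the brain, bind the glucocorticoid receptor and raise a well-known set of transcripts in neurons, glia and vessels. Glucocorticoids follow the hour of the day as well, and so do the transcripts of the circadian clock, a feedback loop in which CLOCK and BMAL1 drive their own repressors, the period and cryptochrome genes.

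Regional identity of the arrays was checked with marker genes. The summed intensity of each region's markers was higher in all of its own R12 and sham arrays than in any R12 or sham array of another region, and 8 of 8 striatal, 10 of 10 midbrain, 9 of 9 pons and medulla and 11 of 11 cerebellar markers were highest in their own region, as were 6 of 9 cortical, 6 of 9 hippocampal and 7 of 10 thalamic ones. Array medians of the mice, as mean log2 over 7 regions, were 5.957 to 6.006 in R12 mice and 5.911 to 5.961 in sham mice. The share of probe sets under an intensity of 16 was 23.3% to 27.8% in R12 and 24.4% to 30.2% in sham mice. The 3′ to 5′ log2 ratio of the actin control, a measure of RNA integrity, was 0.21 to 0.26 in R12 and 0.19 to 0.28 in sham mice, so these ranges overlapped.

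Over the brain as a whole, no probe set passed the adjusted test between R12 and sham. Among the lowest p values were those of Mt2 and Tsc22d3, transcripts that glucocorticoids raise and that were lower at R12, and that of Mmp14, a protease of vessels and connective tissue that was higher. Slc38a5, an endothelial transporter, was higher with a larger difference and a weaker p. None of the 4 passed the adjusted test on mouse means, in which each mouse counts once. The same test did call a change between R6 and R12 for each of them.

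In the test of mouse means (limma, log2 of intensity plus 16 averaged over a mouse's 7 regions, Benjamini-Hochberg over 45037 probe sets), 0 probe sets (0%) were called at an adjusted p under 0.05 between R12 and sham, and the smallest adjusted p was 0.0878, for Mt2. At an unadjusted p under 0.05 there were 4152 probe sets, which is 9.22% of all: 2920 higher (6.48%) and 1232 lower (2.74%) at R12. All 3 R12 mice lay above all 3 sham mice for 3681 probe sets (8.17%) and below them for 1942 (4.31%), and 2771 (6.15%) differed in the same direction in each of the 7 regions. A fit on single arrays that treats the mouse as a random block, with one correlation of 0.0369 assumed for all probe sets, called 772 (1.71%), 634 higher (1.41%) and 138 lower (0.306%). Without the second sham mouse the mouse means gave 32 calls, 25 higher and 7 lower. The count therefore depended on how the 7 regions of a mouse were weighed and on that mouse, and changes below are given from the mouse means unless the array fit is named.

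Higher and lower probe sets were of different kinds. Of the 2920 that were higher at the unadjusted threshold, 1168 (40%) carried no gene symbol and their median intensity was 44.2, whereas 142 of the 1232 lower ones had none and their median intensity was 92. Over all probe sets 20.3% had no symbol and the median intensity was 44.4. The differences were small, with a median size of 0.21 log2 among the higher and 0.15 log2 among the lower.

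Mt2, a metallothionein that binds zinc and copper and is raised by glucocorticoids, had the smallest p. Its level, as the mean over 7 regions, was 1207, 1203 and 1126 in R12 mice against 1703, 1457 and 1977 in sham mice. The groups did not overlap, and every R12 mouse was lower than the lowest sham mouse. The log2 difference was -0.52 ± 0.08 (adjusted p = 0.0878 in limma), and it was negative in 7 of 7 regions. This SE, like those of the other mouse means, comes from the spread pooled over all 24 mice, while for Mt2 the SD of the 3 mice was 0.056 in R12 and 0.22 in sham. Mt1, its close paralog, gave no single answer: the brighter probe set was 0.14 higher at R12 and the dimmer one 0.32 lower (log2 -0.32). The 2 genes are similar enough that probes may bind both.

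Tsc22d3, the leucine zipper protein GILZ that carries part of the anti-inflammatory action of glucocorticoids, had 505.5, 522 and 501.3 in R12 mice against 718.3, 654.8 and 857 in sham mice. The R12 mice lay close together and below all sham mice. The log2 difference was -0.52 ± 0.10 (SE; limma adjusted p = 0.12). Sgk1, a kinase that acts on ion channels and is among the strongest glucocorticoid targets in brain, had 445.4, 439.8 and 376.4 in R12 mice against 662.1, 439.2 and 1056 in sham mice. Here the sham mice were spread widely and the lowest of them fell between R12 mice, so that a log2 difference of -0.67 ± 0.26 came with an adjusted p of 0.423.

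**Figure D1:**
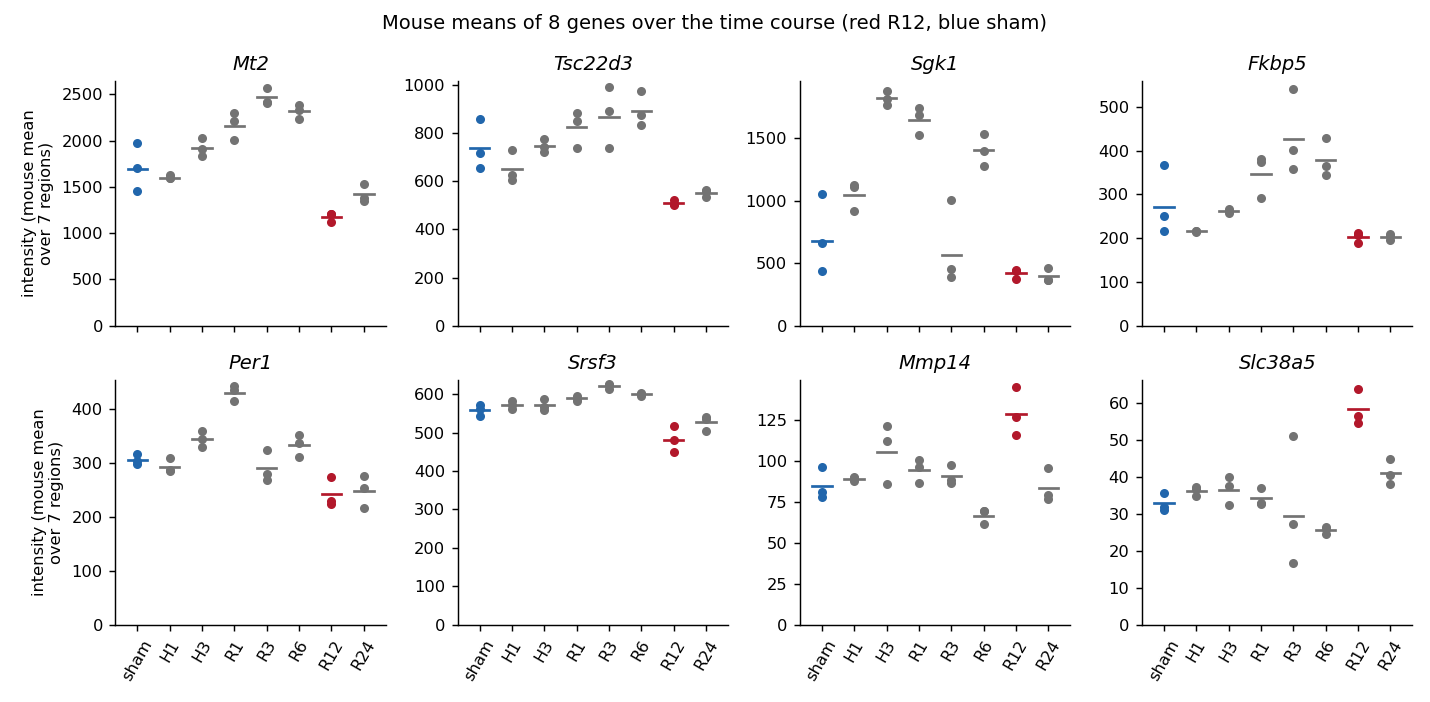
Intensity of 8 genes at each time point from sham through hypoxia (H1, H3) and reoxygenation (R1 to R24). Points are the 3 mice of a time point, each a mean over 7 regions, and bars are group means. R12 points of Mt2 (1126 to 1207) lie below every sham point (1457 to 1977), and those of Mmp14 (115.5 to 145) lie above every sham point (78.22 to 95.95).

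Several other genes of the glucocorticoid list stood below the sham mean too. Fkbp5, a chaperone that dampens the glucocorticoid receptor, had 189.6, 212.8 and 206.8 in R12 mice against 251.6, 216.9 and 367.7 in sham mice. Zbtb16, a transcription factor raised by glucocorticoids, had 262.3, 253.3 and 241.8 against 333.8, 313 and 562.2. Plin4, a lipid droplet protein, had 40.07, 40.03 and 32.54 in R12 mice against 53.31, 41.86 and 111.3 in sham mice. In all of these the third sham mouse was the highest of the 6, and the adjusted p was 0.392 for Fkbp5, 0.46 for Zbtb16 and 0.421 for Plin4. Klf9, a steroid-induced transcription factor, differed by -0.19, and Mertk, a phagocytic receptor of astrocytes and microglia, by -0.27 on the log2 scale. The receptor itself, Nr3c1, was 0.11 log2 above sham with overlapping mice (583.9, 573.3 and 603.5 in R12 against 579.8, 565.3 and 486 in sham). Lcn2, an acute-phase iron carrier, went against the list: it was listed at 12.97, 21.08 and 58.2 in R12 mice against 7.399, 8.907 and 12.34 in sham mice, a dim signal with an adjusted p of 0.793.

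Over the 26 genes of the list, all of them measured, the median log2 difference between R12 and sham was -0.141, against 0.00568 over all probe sets, and 20 were below 0. At the unadjusted threshold 11 of 26 were lower and 1 was higher, where 2.74% and 6.48% of all probe sets were, with 9 of 26 wholly below sham and 1 wholly above, where 4.31% and 8.17% of all were. In the array fit with the mouse as a block, 11 were called lower and 1 higher, against 0.306% and 1.41% of all. That fit counts the regions of a mouse nearly as separate samples. The mean of the list in each mouse, relative to the sham mean, was -0.18, -0.19 and -0.14 log2 in R12 mice and -0.064, -0.12 and 0.19 in sham mice. The R12 mice were all lower than the sham mice, but the nearest sham mouse was close to them and the third stood apart. Without that mouse the list's median was -0.0832, and without the second sham mouse it was -0.199. Sham mice thus differed among themselves in these transcripts at one nominal time, and the part of this in the group difference was not tested.

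Many genes of this list fell between R6 and R12. In the mouse means, 203 probe sets (0.451%) were called between R12 and R6, 104 of them higher at R12 (0.231%) and 99 lower (0.22%), and in all 203 the R12 mice did not overlap the R6 mice, as was so for 12.3% of all probe sets in the higher and 7.43% in the lower direction. They named 75 genes that were higher and 76 that were lower. Same-numbered R12 and R6 mice deviated together from their group means, and with the replicate number as a block 837 probe sets were called, 586 higher and 251 lower, including all 203. Fewer were called when a mouse was left out, down to 50 without the third R6 mouse. The falls were larger than the rises: 21 of the lower probe sets and 6 of the higher ones passed 1.5-fold, and the extremes were -1.70 and 0.83 on the log2 scale. The direction was the same in all 7 regions for 89 of the 99 lower and 87 of the 104 higher probe sets. R12 and sham are compared below with R6 side by side, and these comparisons share the R12 mice. R6 mice were killed about 9 hours after entering the chamber and R12 mice about 15 hours after. Time since hypoxia and the hour of killing thus cannot be told apart in any of these falls and rises.

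Sgk1 had the largest fall, to 445.4, 439.8 and 376.4 at R12 against 1393, 1277 and 1536 at R6 (log2 -1.70, adjusted p = 0.00436). Plin4 fell by 1.42 log2 (40.07, 40.03 and 32.54 at R12 against 163, 104.6 and 119 at R6, adjusted p = 0.00553). Mt2 fell by 0.97 log2, to 1207, 1203 and 1126 at R12 against 2332, 2234 and 2391 at R6, with the smallest adjusted p of this comparison (4.94e-06). For Sgk1 and Plin4 R12 lay near R24 and R6 stood apart. For Mt2 the R12 mice were all below the R24 mice (1386, 1534 and 1349), which were themselves below the R6 mice. Tsc22d3 fell by 0.79 log2 (adjusted p = 0.000904), Fkbp5 by 0.85 (0.0106), Cdkn1a, which encodes the cell cycle inhibitor p21, by 0.81 (0.0436), and Ddit4, an inhibitor of mTOR that both HIF and glucocorticoids raise, by 0.74 (0.00207). Nfkbia, which holds NF-kappaB in the cytoplasm, fell by 0.53 (0.00213) and Gjb6, the astrocytic connexin 30, by 0.42 (0.0251). Pglyrp1, a protein of the innate response to bacteria, had 32.02, 25.14 and 41.38 at R12 against 68.75, 98.33 and 95.19 at R6 (log2 -1.08, adjusted p = 0.00287).

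Of the 26 glucocorticoid-raised genes, 12 were called lower and 1 higher at R12 against R6, where 0.22% and 0.231% of all probe sets were called, and the median log2 difference was -0.433. The median difference from sham was 0.287 at R6, -0.141 at R12 and -0.203 at R24. Against R24 the R12 median was 0.0622, with 3 genes higher and 1 lower at the unadjusted threshold, which 3.8% and 2.14% of all probe sets passed. Fasting and FOXO genes followed: 8 of 23 were called lower against R6, among them Pdk4, which restrains glucose oxidation (log2 -0.43, adjusted p = 0.00906), Txnip, a regulator of glucose uptake (log2 -0.38, adjusted p = 0.00753), and Pnpla2, the lipase that opens triglyceride stores (log2 -0.38, adjusted p = 0.00753). Ddit4, Pdk4 and Plin4 are members of both lists.

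**Figure D2:**
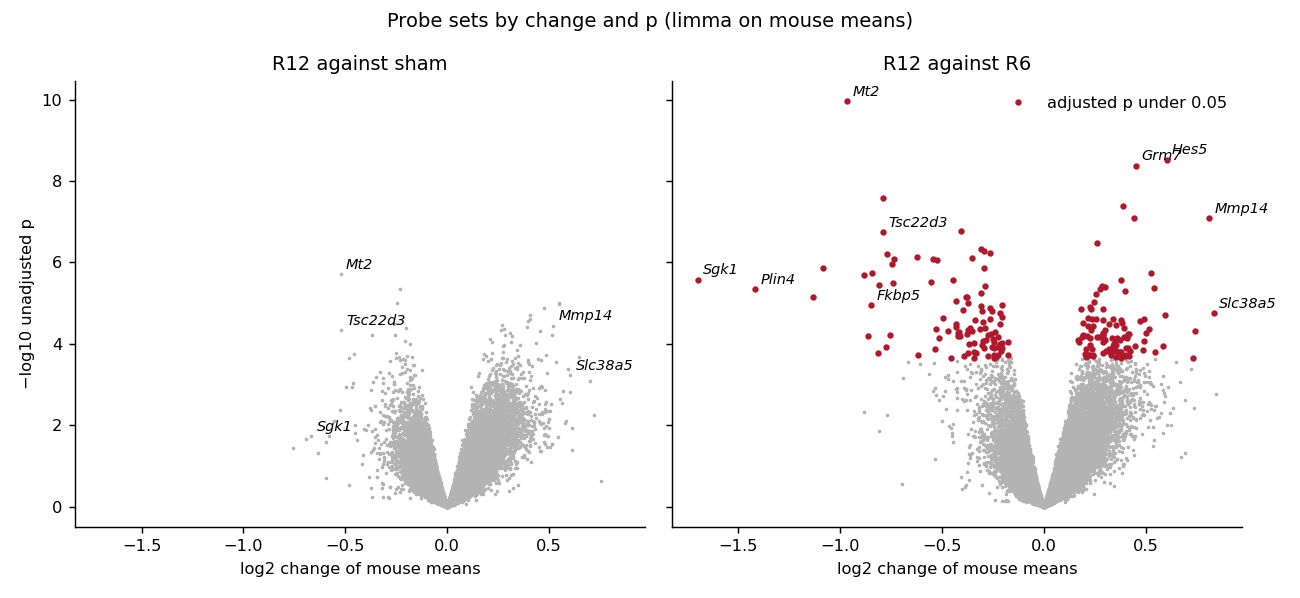
Change of each of 45037 probe sets between R12 and sham (left) and between R12 and R6 (right), on the log2 scale, against minus log10 of the unadjusted limma p. Red points have an adjusted p under 0.05: 0 on the left and 203 on the right, where Sgk1 at -1.70 is farthest to the left and Slc38a5 at 0.83 farthest to the right.

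Several genes of vessels and of the tissue around them stood above sham at R12. Mmp14, a membrane-bound protease that cuts collagen and activates other metalloproteinases, had 127, 115.5 and 145 in R12 mice against 81.15, 95.95 and 78.22 in sham mice. It was also higher than in R6 mice (69.35, 61.25 and 69.1) and R24 mice (76.78, 79.07 and 95.69). R12 was thus the highest of these 4 groups, with no overlap. The log2 difference was 0.52 ± 0.10 from sham (SE; adjusted p = 0.12), 0.81 from R6 (adjusted p = 0.00053) and 0.54 from R24 (adjusted p = 0.313), and it was positive against sham in 7 of 7 regions, between 0.22 in striatum and 0.79 in pons and medulla. Slc38a5, a glutamine transporter of brain endothelium, had 56.53, 54.64 and 63.75 in R12 mice against 35.6, 31.72 and 31.11 in sham mice. It stood above sham by 0.61 ± 0.15 log2 (adjusted p = 0.229) and rose by 0.83 from R6 (adjusted p = 0.0135), where the mice had 25.8, 26.42 and 24.63.

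Among endothelial markers, Flt1, a receptor that traps vascular endothelial growth factor, had 187.3, 179.4 and 191.3 in R12 mice against 163.4, 167.8 and 159.2 in sham mice. It rose by 0.44 log2 from R6, where the mice had 130, 133.4 and 134.5 (adjusted p = 0.00053). Sox18, an endothelial transcription factor outside the marker list, had 96.67, 95.24 and 106.6 in R12 against 77.26, 80.56 and 77.72 in sham mice, and rose by 0.49 from R6 (adjusted p = 0.0295). Slco1a4, an organic anion carrier of the blood-brain barrier, had 337.9, 335.9 and 347.7 against 307.3, 268.5 and 283.6, a difference of 0.24 ± 0.06 log2 (adjusted p = 0.197), and Tek, the angiopoietin receptor, differed by 0.21 (adjusted p = 0.325). All 9 measured endothelial markers were above sham at R12, with a median of 0.142 log2, and 4 of 9 passed the unadjusted threshold as higher, where 6.48% of all probe sets did. Vwf, the clotting factor carrier, was dim (32.8, 44.55 and 42.39 in R12 against 28.32, 21.08 and 28.78 in sham mice), and so was Icam1, the leukocyte adhesion receptor (22.31, 23.36 and 25.25 against 14.46, 11.64 and 12.38). The R24 mice were also above sham for this list (0.14 to 0.15 as the mean log2 of a mouse) and R12 mice were at 0.13 to 0.20, against -0.03 to 0.04 in sham mice. In tissue samples, more cells of a type and more RNA per cell cannot be told apart.

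Meningeal and fibroblast markers moved with these. Their summed intensity was 4576 to 4951 in R12 mice against 3976 to 4630 in sham mice, ranges that overlap slightly. Of the 10 markers 8 were above sham with a median of 0.109 log2, and 4 passed the unadjusted threshold as higher, where 6.48% of all probe sets did. Their part in the vascular and perivascular values was not tested. Slc6a20a, a proline transporter found in meninges and choroid plexus, had 128, 121.3 and 131.8 in R12 mice against 97.06, 93.29 and 108.9 in sham mice (log2 0.31 ± 0.06, adjusted p = 0.12). Apod, a lipid carrier of glia and perivascular cells, had 1404, 1303 and 1363 against 1129, 1067 and 1256 (log2 0.24 ± 0.06, adjusted p = 0.257). Olfml1 (71.52, 65.1 and 67.93 against 55.7, 51.35 and 53.03) and Arhgap29 (208.6, 207.4 and 220 against 179.2, 187.3 and 177.4), likewise did not overlap. In these 4 genes R24 mice were above the sham mean too.

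Some glial transcripts rose from R6 as well. Hes5, a Notch target that keeps progenitors from differentiating, had 69.81, 66.97 and 79.73 at R12 against 42.25, 43.26 and 40.47 at R6. The log2 difference was 0.60 (limma adjusted p = 6.27e-05). Sham mice had 60.6, 57.59 and 62.12, so R12 stood above sham without overlap, by 0.21 log2 (adjusted p = 0.289). Opalin, a myelin membrane protein, rose by 0.55 log2 from R6 (303.4, 255.3 and 259.3 at R12 against 164.6, 208.9 and 172.6, adjusted p = 0.0416) and Fa2h, which makes hydroxylated myelin lipids, by 0.40 (adjusted p = 0.0458). Of 13 oligodendrocyte markers 1 was called and 7 passed the unadjusted threshold, all higher than at R6, where 9.16% of all probe sets passed as higher. The mean of that list in each mouse, relative to the sham mean, was -0.205, 0.0021 and -0.073 log2 in R6 mice. In R12 mice it was 0.072, 0.050 and 0.0057. Astrocyte markers did not rise as a list: 3 were above and 7 below R6, with 1 called lower (0.22% of all probe sets). The neuronal transcripts Grm7, a presynaptic glutamate receptor (256.3, 265.1 and 263.5 against 188.2, 191.5 and 181.9, log2 0.45, adjusted p = 6.27e-05), and Csmd3 (log2 0.54, adjusted p = 0.00553) also rose, as did Wnt7a, a signal for brain vessels (log2 0.37, adjusted p = 0.0426). For Grm7 the sham mice had 268.7, 248 and 264.7, a range that holds all 3 R12 mice. Neuronal markers did not rise as a list: of 10 measured, 4 were above and 6 below R6, with a median of -0.017 log2 and 0 called.

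**Figure D3:**
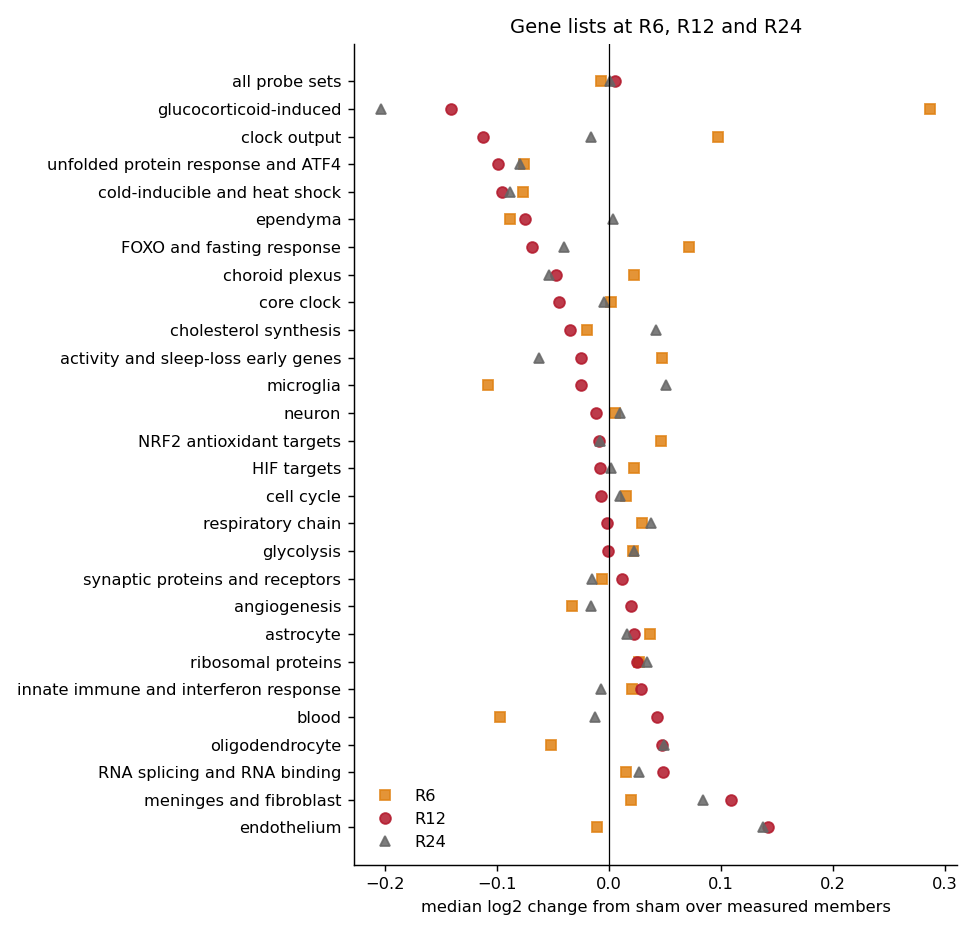
Median log2 difference from sham over the measured genes of each list at R6, R12 and R24; lists run down by their R12 median and all probe sets are given as well. Glucocorticoid-induced genes lie at 0.287 at R6, -0.141 at R12 and -0.203 at R24, and endothelial markers at 0.142 at R12.

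Srsf3, a splicing factor that binds many messenger RNAs, was lower at R12 by every one of its 5 probe sets. The brightest had 450, 517.2 and 479.7 in R12 mice against 542.4, 571.5 and 560.6 in sham mice, which did not overlap (log2 -0.21 ± 0.04, adjusted p = 0.146), and 604.1, 599.7 and 596.1 in R6 mice (log2 -0.31, adjusted p = 0.00187). Of the 28 splicing and RNA-binding genes measured, 20 were above sham, 7 passed the unadjusted threshold as higher (6.48% of all probe sets) and Srsf3 alone as lower (2.74% of all), with a median of 0.0488 that shrank to 0.0142 when each array was centred on its median. Gpt2, a mitochondrial enzyme that links alanine to glutamate, had 137.7, 159.2 and 151.9 at R12 against 169.1, 169.7 and 192.9 in sham mice and fell by 0.41 log2 from R6 (adjusted p = 0.000904). Tob2, an antiproliferative regulator of messenger RNA decay, fell by 0.62 (adjusted p = 0.00207).

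The circadian clock was compared because R12 mice were killed at another interval than sham mice, if 0 hr means the methods' controls. Of 18 core clock genes, 13 were below sham at R12 with a median of -0.0441 log2, 4 passed the unadjusted threshold, all of them lower (2.74% of all probe sets), and 2 lay wholly below sham (4.31% of all). Per1, a repressor of the loop that glucocorticoids also induce, had 224.7, 230.8 and 275.2 in R12 mice against 303.3, 298 and 317.4 in sham mice (log2 -0.32 ± 0.08, adjusted p = 0.262). It fell by 0.43 log2 from R6, where the mice had 311.4, 337.2 and 353 (adjusted p = 0.0193), and R24 mice had 254.4, 276.2 and 217.1. The R24 mice overlapped the R12 mice for Per1. The part of the hour of killing in these values was not tested.

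Per2, its partner repressor, had 73.21, 95.92 and 79.24 in R12 mice against 106, 104.3 and 95.09 in sham mice, with one R12 mouse inside the sham range. Dbp, a clock-driven transcription factor of large daily amplitude in many tissues, had 532.6, 637 and 471 against 834.4, 529.3 and 765.4. The second sham mouse was below 2 of the R12 mice, which left a difference of -0.35 ± 0.15 log2 with an adjusted p of 0.46. R24 mice had 863, 831.3 and 734.9 for Dbp, all above R12 (log2 -0.56 for R12 minus R24, adjusted p = 0.585). The loop's other genes differed less. Arntl, which encodes BMAL1, had 195.4, 201.6 and 221.1 in R12 against 188.8, 230.1 and 180.6 in sham mice, and the log2 difference was -0.047 for Cry1, 0.045 for Cry2, -0.028 for Clock, 0.047 for Npas2, 0.059 for Per3, -0.030 for Rora and -0.0058 for Rorb. A second probe set of Clock rose by 0.29 log2 from R6 (adjusted p = 0.0117). The repressors Nr1d1 and Nr1d2 differed by -0.13 and -0.14, Bhlhe40 and Bhlhe41 by -0.13 and -0.11, and Ciart, an inhibitor of CLOCK and BMAL1, by -0.25. The kinases Csnk1d and Csnk1e, which mark period proteins for decay, differed by -0.041 and 0.054, and the ligase subunit Fbxl21 by -0.13. Dbp's relatives Tef (-0.044), Hlf (0.038) and Nfil3 (0.039) lay within the mice's spread. Among 23 clock output genes the median was -0.112 and 8 passed the unadjusted threshold as lower (2.74% of all probe sets), of which Sgk1, Tsc22d3, Klf9 and Pdk4 belong to the glucocorticoid list too. Usp2, a deubiquitinase under clock control, fell by 0.40 log2 from R6 (adjusted p = 0.0118).

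Of the clock and clock output genes called lower at R12 than at R6, Per1 and Sgk1 held an E-box in a promoter window. It was in 1 of the 2 windows of Per1 and 1 of the 6 of Sgk1, and those windows are shown for that reason. Pdk4, Tsc22d3 and Usp2, the other genes so called, held no E-box. The windows run from 250 bases before to 50 bases after the start in RefSeq on GRCm38.p6, and capitals mark the matches: the E-box CACGTG, which CLOCK and BMAL1 bind, and in Sgk1 also a full glucocorticoid response element, AGAACA and TGTTCT with 3 bases between them. Per1 lies at chr11:69098699-69098998 and Sgk1 at chr10:21993640-21993939, both on the plus strand.
Per1: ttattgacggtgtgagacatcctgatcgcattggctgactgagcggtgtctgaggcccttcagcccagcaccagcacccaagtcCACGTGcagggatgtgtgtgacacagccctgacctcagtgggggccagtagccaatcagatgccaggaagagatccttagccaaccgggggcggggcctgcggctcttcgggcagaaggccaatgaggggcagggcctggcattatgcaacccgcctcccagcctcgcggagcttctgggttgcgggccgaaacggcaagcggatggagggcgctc
Sgk1: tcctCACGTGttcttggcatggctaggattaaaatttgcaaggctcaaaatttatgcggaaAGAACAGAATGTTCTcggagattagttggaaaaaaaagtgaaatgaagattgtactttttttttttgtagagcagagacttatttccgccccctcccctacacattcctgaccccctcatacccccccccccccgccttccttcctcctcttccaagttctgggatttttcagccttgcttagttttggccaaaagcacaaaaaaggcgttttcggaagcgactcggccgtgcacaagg
Both strands were searched. The E-box also contains the letters ACGTG of the hypoxia response element core. An E-box was present in 8.09% of 27025 genes with a window, in 4 of 15 core clock genes (26.7%), 9 of 21 clock output genes (42.9%), 12 of 67 genes lower at R12 than at R6 (17.9%) and 6 of 56 genes higher (10.7%). The full glucocorticoid element was found in 3 of 27025 genes (0.0111%), and Sgk1 was the 1 gene of the glucocorticoid list among 24 with a window that had it. A match is only a description of the letters.

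HIF targets stood near sham as a list. Of 35 measured, 16 were above and 19 below sham with a median of -0.00812 log2, 3 passed the unadjusted threshold as lower and 0 as higher, where 2.74% and 6.48% of all probe sets did. Vegfa, the vessel growth factor, had 166.5, 168.2 and 176.4 in R12 against 156.7, 177.1 and 154.4 in sham mice. Slc2a1, the glucose carrier of the blood-brain barrier, had 524.1, 510.5 and 468.5 against 581.2, 512 and 718.6, and P4ha2, a collagen-modifying enzyme, had 73.78, 68.89 and 71.2 against 80.36, 86.24 and 75.64 (log2 -0.15, adjusted p = 0.331). Bnip3, a mitochondrial protein of the hypoxia response, fell by 0.21 log2 from R6 (adjusted p = 0.0193). Hif3a, a HIF family member that glucocorticoids also raise, was -0.26 from sham and fell by 0.50 from R6 (adjusted p = 0.0163).

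Of 30 cold and heat shock genes 26 were below sham, 4 passed the unadjusted threshold and did so as lower (2.74% of all probe sets), and the median was -0.095 log2. The mean of the list in each mouse was -0.13, -0.087 and -0.075 log2 in R12 mice and -0.12, 0.18 and -0.064 in sham mice, so that R12 overlapped sham. Without the second sham mouse the median was -0.016. Hspd1, the mitochondrial chaperonin, had 1050, 1041 and 1050 against 1116, 1141 and 1096, and Dnaja1, a co-chaperone of the cytosol, 1402, 1409 and 1445 against 1507, 1503 and 1511. For these 2 genes the mice did not overlap, and the log2 differences were -0.093 and -0.086. Hspa5, the chaperone of the endoplasmic reticulum, rested on one mouse: R12 mice had 1134, 1287 and 1300 against 1157, 1924 and 1228 in sham mice. Cirbp, an RNA-binding protein that rises in the cold, had 351.3, 401.6 and 318.9 against 364.6, 260.3 and 353.9. The list had a like median at the other times, -0.0765 at R6 and -0.0885 at R24, all of them set against the same sham mice. Unfolded protein response genes had a median of -0.0986, with 4 of 29 lower at the unadjusted threshold (2.74% of all probe sets), and a median of -0.0252 without the same sham mouse. Glycolysis, respiratory chain, cholesterol synthesis, synaptic and cell cycle genes had medians between -0.0343 and 0.012.

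Between R12 and R24, 0 probe sets were called by limma, with 2674 (5.94%) at an unadjusted p under 0.05, and by no alternative but quantile normalization (1) and one omission of a mouse (2). Mmp14 and Mt2 had adjusted p values of 0.313 and 0.611 there.

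Changes were then fitted in each region. A test of whether the R12 difference varied between regions called 0 probe sets (limma F-test), with 1996 (4.43%) at an unadjusted p under 0.05. Mt2 was among the 4 with the smallest adjusted p (0.107). Single regions gave few calls: 14 probe sets in hippocampus (0.0311%), 13 in cerebellum (0.0289%), 5 in striatum (0.0111%), 1 each in thalamus and midbrain (0.00222%), and 0 in cortex and in pons and medulla. Cortex had 2594 probe sets (5.76%) and pons and medulla 2067 (4.59%) at an unadjusted p under 0.05. Without the second sham mouse the 34 calls over the regions became 160.

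Mt2 was called lower in thalamus (995.2, 892.8 and 852.3 at R12 against 1545, 1518 and 2060 in sham, log2 -0.88, adjusted p = 2.19e-07), midbrain (log2 -0.73, adjusted p = 0.000143), hippocampus (log2 -0.69, adjusted p = 0.000723) and cerebellum (log2 -0.53, adjusted p = 0.039). In pons and medulla it differed by -0.52 without overlap (adjusted p = 0.197), but in cortex and striatum by only -0.16 and -0.15, with overlapping arrays (984.4, 1094 and 1084 against 1325, 991.2 and 1232 in cortex). Tsc22d3 was called lower in hippocampus (373.2, 364.8 and 335.2 against 567.2, 505.5 and 720.3, log2 -0.70, adjusted p = 0.00139), striatum (log2 -0.62, adjusted p = 0.0138) and cerebellum (log2 -0.55, adjusted p = 0.0492). Its R12 arrays did not overlap the sham arrays in any of the 7 regions, and the smallest difference was -0.36 in midbrain.

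**Figure D4:**
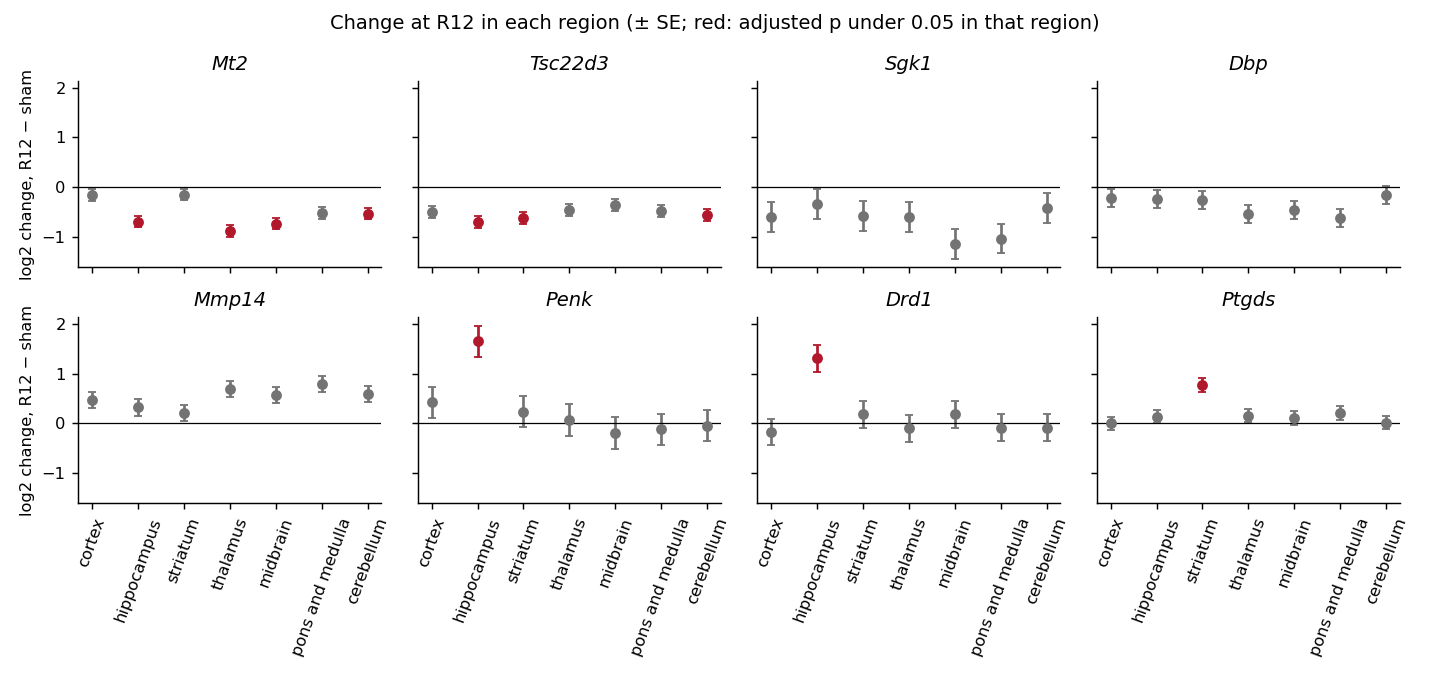
Difference between R12 and sham in each region, in log2 with its standard error, for 8 genes; red points have an adjusted p under 0.05 in that region. Mt2 and Tsc22d3 lie below 0 in 7 of 7 regions, Penk (1.65) and Drd1 (1.31) stand out in hippocampus, and Ptgds (0.77) in striatum.

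In hippocampus 11 of the 14 calls were higher at R12 (0.0244%), and most of these named genes known for their high level in striatum. Penk, the enkephalin precursor, had 452.5, 692.3 and 824.6 in R12 arrays against 276.1, 134.5 and 190 in sham arrays (log2 1.65 ± 0.32, adjusted p = 0.00567). The dopamine receptors Drd1 (209.6, 190 and 169.1 against 60.76, 65.77 and 74.93, adjusted p = 0.0175) and Drd2 (78.51, 142.8 and 167.9 against 44.41, 44.79 and 45.16, adjusted p = 0.0424) rose too. R12 arrays were above all sham arrays for each of them. Scn4b, a sodium channel subunit (log2 0.93, adjusted p = 0.0038), Syndig1l (log2 0.97, adjusted p = 0.0157), Gpr6 (log2 0.95, adjusted p = 0.049), Foxp2, a transcription factor of striatal and deep cortical neurons (log2 0.78, adjusted p = 0.0067), and a second probe set of Pde10a, the striatal phosphodiesterase (log2 0.77, adjusted p = 0.0424), were called as well.

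The whole striatal marker list moved in these arrays. All 8 of its measured markers were higher in R12 hippocampus without overlap, where 6.9% of all probe sets were, with a median of 0.85 log2, and their summed intensity was 1909, 2604 and 2819 at R12 against 1255, 1026 and 1184 in sham. In striatum itself the sum was 17380, 17330 and 18600 at R12 against 16840, 15830 and 14870. The 9 choroid plexus markers, which come from tissue beside the hippocampus, summed to 7026, 6552 and 7804 in R12 hippocampus against 3498, 6082 and 6639 in sham. The hippocampus markers summed to 3824 to 4068 at R12 against 4259 to 4329. Dissection was not recorded per array, and its part in these values was not tested. Without the hippocampus the difference over the remaining regions was -0.013 log2 for Drd1 and -0.033 for Drd2, against 0.18 and 0.14 over 7 regions.

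**Figure D5:**
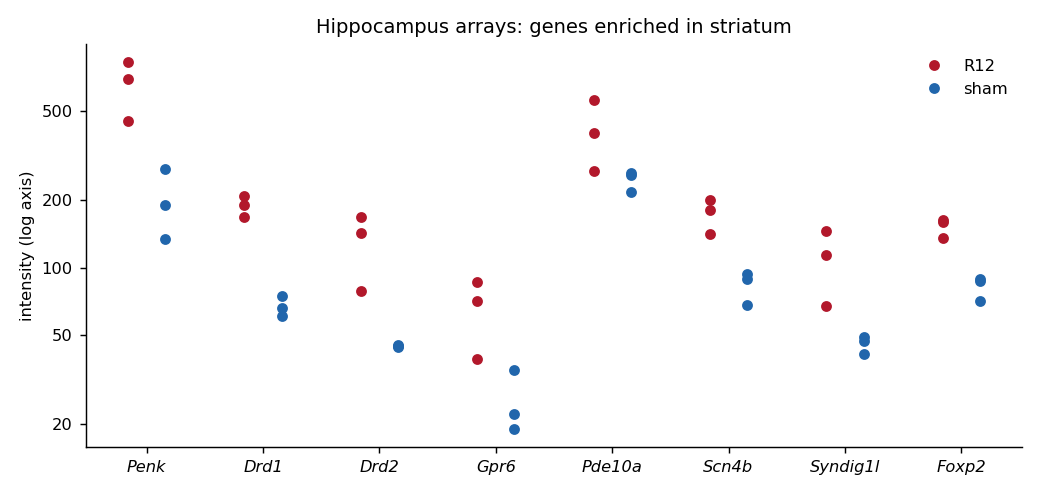
Intensity in the hippocampus arrays, on a log axis, of 8 genes enriched in striatum; each point is one array, 3 at R12 (red, left) and 3 sham (blue, right) for each gene. Penk lies at 452.5 to 824.6 at R12 and 134.5 to 276.1 in sham, and Drd1 at 169.1 to 209.6 and 60.76 to 74.93.

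In striatum 4 of the 5 calls were higher. Of these, 2 were probe sets of Ptgds, prostaglandin D2 synthase, a product of meninges, choroid plexus and oligodendrocytes, 1 of which had 2791, 2815 and 3646 in R12 arrays against 1565, 1837 and 1995 in sham arrays (log2 0.77, adjusted p = 0.00181). The other probe set of the gene gave 1.21 (adjusted p = 8.84e-05). The remaining higher calls were Trim72 (log2 0.51, adjusted p = 0.0138), whose probe set averaged 5.28 in intensity, and a probe set with no gene symbol. The 10 meningeal and fibroblast markers include Ptgds. They summed to 3330, 3374 and 4241 in R12 striatum against 2120, 2305 and 2507 in sham, but most of that sum is Ptgds itself. Of the 10 markers 8 were above sham in striatum, 1 of them without overlap, and the median was 0.128 log2. The part of such tissue was not tested. In cerebellum, besides Mt2 and Tsc22d3, the calls included Xk (log2 -1.07, adjusted p = 0.00142), Siae (log2 -0.90, adjusted p = 0.00483), Ferd3l (log2 -0.94, adjusted p = 0.0248) and Col17a1 (log2 0.69, adjusted p = 0.0117). Their probe sets averaged 10.51, 4.59, 17.1 and 4.42 in intensity over all arrays, which is near or below the pseudocount of 16.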

How the data were processed

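The deposited file holds linear intensity values of every array, a single value per probe set, which per the labels were made with GCOS 1.3. The authors' methods name GCRMA and quantile normalization, but the values do not show quantile normalization, since array medians differ, so the exact steps are not given in the sources used here. Values were used as deposited, as log2(intensity + 16). After 64 array controls were set aside, 45037 probe sets remained: 34945 with 1 gene symbol, 932 with several and 9160 with none. A gene stands for its brightest probe set that names it alone.

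Regions were averaged within each of 24 mice (8 time points of 3) and fitted together with limma 3.58.1 in R 4.3.3 (values were read with version 1.17.8 of data.table). The fit had 16 residual degrees of freedom. Single regions and the difference between them were fitted on arrays with 56 group means and the mouse as a random block. A call is a Benjamini-Hochberg adjusted p under 0.05. Differences are on the log2(intensity + 16) scale, which understates changes of dim probe sets. The 3 mice of a group limit the precision. P-values of the mouse means measure the spread between these mice, and those of the array fits mainly the spread between arrays. On simulated data for the R12 and sham comparison with 45037 probe sets, 86.4% of 100 changes of 0.5 log2 were called (mean of 5 draws) and 99.6% of changes of 1 log2. Both sizes of change, 100 probe sets each, were placed in the same draws, which eases the adjusted threshold for the smaller ones. The simulated probe sets were drawn independently, with the same spread at every time point. For these reasons the shares may not hold for the measured mice.

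The labels do not say that a replicate number marks one mouse in every region. Arrays of the same time point and number correlated in their deviations between regions at 0.0761 on average, against -0.038 for other numbers. Deviations within a group cancel out, so the second value follows from the first. Arrays of the same region and number at other time points, which come from different mice, correlated at 0.135. Those that shared only the number, in other regions and at other time points, correlated at 0.0263. The number thus also went with something shared between mice, whose source was not tested. The value of 0.0761 therefore does not show that a number marks a single mouse. Same-numbered mean deviations of R12 and R6 mice correlated at 0.183, 0.24 and 0.243. A fit with the number as a block, a pairing taken from the data and not from the labels, is therefore also given there. The calls and adjusted p values described against R6 come from the fit without this block. R12 and sham mice correlated less at each number (0.0862, 0.185 and 0.0121), and the block was only an alternative there too.

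Named genes were those of the core clock list with Dbp, Tef, Hlf and Nfil3, up to 20 called rises and 20 called falls (none passed), members of each gene list and the genes with the smallest p for a difference between regions. Others, among them most genes described against R6 and in single regions, were chosen after their values were seen. The comparison, the gene lists and the genes were chosen with earlier results of these data known. Alternatives varied the pseudocount, normalization, filter, block, regions and mice.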

Additional observations from a re-analysis of the deposited data

Results flagged for a closer look

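The striatal receptor gene Gpr6 differed in opposite directions in 2 regions. In hippocampus the 3 R12 arrays (39.15, 86.57 and 70.75) were all above the 3 sham arrays (22.21, 35.01 and 19.15), a log2 difference of 0.947, while in thalamus the R12 arrays (21.65, 24.18 and 26.33) were all below the sham arrays (31.34, 42.59 and 39.15), a log2 difference of -0.42. The difference between these 2 regions was not tested alone, and the test over all 7 regions gave an adjusted p of 0.747 for Gpr6 (limma).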

How the results depend on the processing

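The count of 0 probe sets between R12 and sham became 1 with quantile normalization, with a trended and robust prior, or without the cortex (Mt2 each time), 2 with a pseudocount of 32 or without the cerebellum (Mt2 and Srsf3), 3 with the replicate block, 4 over probe sets above the median, 772 in the array fit with the mouse block, 1430 with no block, 1408 and 1481 with the mouse and replicate blocks together (the second by region), and 1361 for an F-test over the time points followed by an unadjusted p. The array fits, with a correlation of 0.0369 within a mouse, count its 7 regions nearly as separate samples. Leaving out 1 mouse at a time gave 0 to 32, and the 32 (25 higher, 7 lower, Mt2, Tsc22d3 and Mmp14 among them) came without sham replicate 2. Over its alternatives the adjusted p of Mt2 ran between 4.45e-17 and 0.703.

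Against R24, quantile normalization gave 1 call, and leaving out mice 0 to 2 (2 without R6 replicate 3, which only shares the spread). Against R6, the 203 calls became 104 with a pseudocount of 1 and 837 with the replicate block, and 50 to 191 when 1 mouse was left out (50 without R6 replicate 3, 58 without R6 replicate 1, 52 without R12 replicate 1, 65 without R12 replicate 3 and 104 without R12 replicate 2). All 203 kept their direction in each alternative run. Quantile normalization split its 220 calls into 87 higher and 133 lower, against 104 and 99. The test for a difference between regions gave 1 call with a pseudocount of 32, 4 from the R12 and sham arrays alone, and 0 to 5 without a mouse. The 34 calls in single regions became 22 over brighter probe sets and 65 with a replicate block by region, and 27 to 160 without a mouse (160 without sham replicate 2, 88 without R12 replicate 2 and 60 without R12 replicate 1).

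Of 78 named genes, 58 kept the sign of their R12 and sham difference in all alternatives. With the second-brightest probe set the log2 difference turned to -0.32 for Mt1, 0.026 for Per2, -0.049 for Per3, 0.049 for Clock, -0.023 for Npas2, 0.14 for Rorb, 0.014 for Bhlhe41, -0.11 for Csnk1e, -0.038 for Hlf, -0.070 for Arhgap29 and -0.067 for Vegfa. Without the hippocampus it was -0.013 for Drd1, -0.033 for Drd2 and -0.032 for Pde10a, and without the striatum 0.015 for Rorb. When 1 mouse was left out it ran between -0.031 and 0.10 for Cry2, -0.017 and 0.14 for Arntl, -0.097 and 0.029 for Clock, -0.035 and 0.14 for Npas2, -0.061 and 0.047 for Rorb, -0.11 and 0.0067 for Tef, -0.079 and 0.16 for Nfil3, -0.31 and 0.054 for Hspa5, and -0.013 and 0.22 for Cirbp, crossing 0 in each. The cause was not tested. All 34 genes described against R6 kept their sign. With 3 mice a group, changes could be missed, those above 0.5 log2 included. Differences from sham of -0.52 for Mt2, 0.52 for Mmp14, 0.61 for Slc38a5 and -0.67 for Sgk1 were not called.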
